A study of Mus musculus with 192 samples.

Results

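The midbrain of homozygous (HOM) L44 mice at the onset of diabetes was compared with that of nontransgenic (NON) control mice of the same time point, in tissue collected in the afternoon (PM). L44 mice carry tripro-human amylin, a form of human amylin with proline substitutions, on the FVB/n background. The transgene is driven by the rat insulin 2 promoter, which is active in pancreatic beta cells. Its expression in the brain was not measured separately here. The paper could not assign its brain amylin changes to the mouse gene or the transgene. All mice were male and came from matings of hemizygous (HEM) parents, and the NON mice were their nontransgenic littermates or age-matched mice of another litter. T2, the time point used here, is diabetes onset in the transgenic mice, and T1 and T3 are the stages before diabetes and after blood glucose has returned to normal. The NON mice were controls without diabetes, so genotype and diabetic state cannot be told apart here. The paper reports that some NON mice of the study also became hyperglycaemic, to a smaller extent and more briefly. The mice were 100 to 246 days old in the HOM pools and 90 to 243 days old in the NON pools. Among the other groups used, the T2 HEM pools in PM held mice of 90 to 243 days, the T2 HOM and NON pools of the morning (AM) 130 to 286 days, the T2 HEM pools in AM 127 to 271 days, the T1 pools 99 to 101 days and the T3 pools 400 to 407 days. The midbrain block was the brain without hindbrain and cortices, and included the forebrain. RNA from 2 mice was combined into each of the HOM and NON pools compared, and mRNA was counted with barcoded probes on the nCounter platform. Of the 46 midbrain libraries with a labelled collection time, all of which entered the estimate of the spread, 10 held a single mouse. By the labels, 3 HOM pools (6 mice) and 5 NON pools (10 mice) of this kind were found among 192 pools in the series, 49 of them midbrain. Pools are named by the numbers of the mice, so that HOM pool 6/9 combined mice 6 and 9.

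Leptin, a hormone of fat tissue, binds the long form of its receptor and activates the kinase Jak2 and the transcription factor Stat3. Stat3 switches on Socs3, which in turn blocks the receptor and Jak2 and so closes a feedback loop. In the hypothalamus, Npy and Agrp promote feeding while Pomc and Cart restrain it. Amylin, which is co-secreted with insulin, acts on a receptor made of the calcitonin receptor Calcr and a Ramp protein.

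The labelled tissue was checked with 5 genes whose expression is largely hypothalamic. All were above background in 8 of 8 midbrain pools, and also in 8 of 8 hindbrain and 8 of 8 right cortex libraries. Being above background therefore does not tell the regions apart, and the levels are compared. Background was taken in each pool as the mean plus 2 SD of its 8 negative control probes. Normalised counts are raw counts divided by the pool's geometric mean of 3 reference genes and scaled to the midbrain average of that mean, 5796. Mch, the melanin-concentrating hormone precursor, had a median of 23747 normalised counts in the midbrain, against 140.4 in the hindbrain and 90.5 and 114.4 in the left and right cortices of the same mice. Hcrt, the orexin precursor, had a median of 827.5 in the midbrain and of 20.7 to 28.4 elsewhere. Agrp had a median of 122.9 in the midbrain and of 30.1 to 43.98 elsewhere. Hdc, the histamine-synthesising enzyme, and Pomc were less selective, at 249.8 and 338.0 in the midbrain against 219.0 and 235.3 in the hindbrain. Summed over the 5 genes, the normalised counts were 27578 in HOM pool 4/8, 22103 in HOM pool 6/9 and 24745 in HOM pool 7/10, and 24446 to 33147 in the NON pools. The lowest sum was that of HOM pool 6/9 and the highest that of NON pool 6/9, and the groups overlapped. Mch made up 93.3% to 94.5% of each sum. NON pool 6/9 was high in Mch (31333 against 23096 to 24648 in the other NON pools). Without Mch the sums were 1632, 1318 and 1571 in HOM pools 4/8, 6/9 and 7/10 and 1351 to 1813 in NON pools. HOM pool 6/9 was again the lowest and NON pool 6/9 the highest. The panel holds no marker of glia or blood, and the 5 genes do not measure how much of the rest of the forebrain a pool held.

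The total count over the 43 target genes ranged from 221875 to 314759 per pool. The reference gene mean was 5271 to 7080 counts, with a mean of 6686 in HOM and 5968 in NON pools. Background lay between 15.5 and 26.6 counts. Of the 43 genes, 41 were above background in all 8 pools. The exceptions were Ins1 in HOM pool 7/10 and NON pool 11/14, and Ins2 in NON pool 2/15. In RNA of a whole tissue block, a change in the number of expressing cells and a change in RNA per cell cannot be told apart.

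In this comparison 3 of the 43 genes differed by adjusted p, 6.98% of those tested, and all 3 were higher in HOM pools. They were Socs3, Stat3 and Npy. The adjusted p is that of the edgeR quasi-likelihood test after Benjamini-Hochberg correction for 43 genes, with the spread estimated over 46 midbrain pools, and the same test is meant wherever an adjusted p is printed without another name. Npy and Socs3 were also past 1.5-fold (4.65%), and Socs3 alone was past 2-fold (2.33%). Of all genes, 6 had an unadjusted p under 0.05 (14.0%). The median log2 fold-change was -0.046, with 12 genes positive and 31 negative. With the positive control probes as the scale the median was 0.13, with 37 positive and 6 negative, and 25 of the 43 genes changed sign under that scale or under edgeR's TMM. The directions of Socs3, Stat3 and Npy were the same under all 3 scales.

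**Figure D1:**
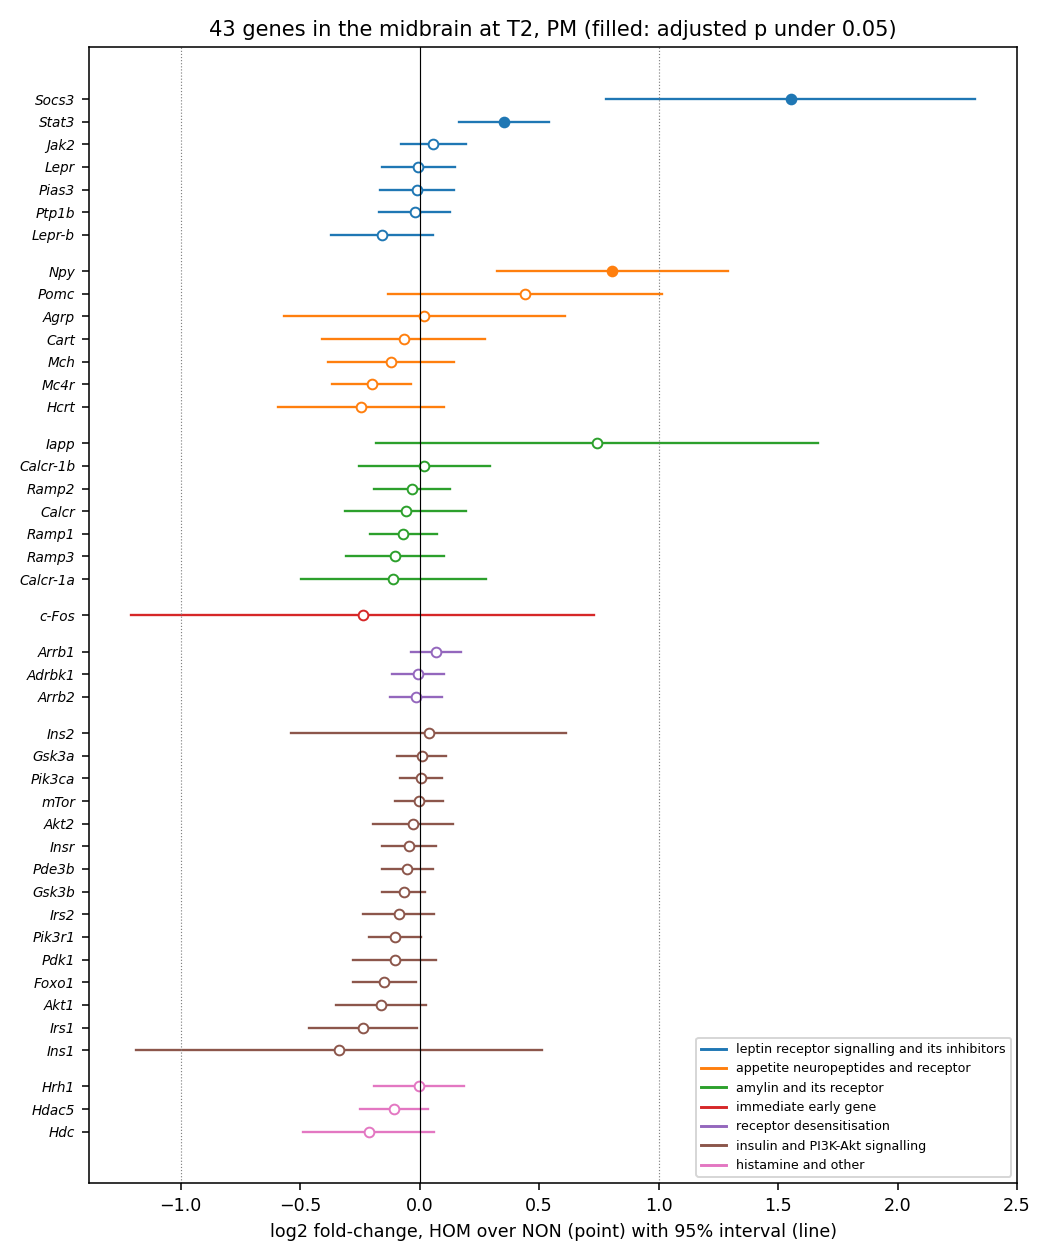
Log2 fold-change of HOM over NON for each of the 43 genes (points) with its 95% interval (lines), coloured by role; filled points have an adjusted p under 0.05. Socs3 at 1.55, Npy at 0.81 and Stat3 at 0.35 are the filled points, and most other genes lie close to 0.

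HOM pool 6/9 stood apart from the other HOM pools in a few genes, and values without it are given beside the main results. Its Socs3 was 5.45 times that of the other HOM pools (geometric mean), its c-Fos 2.30 times, its Npy 1.57 times and its Stat3 1.45 times. Of the 43 genes, 31 lay within 0.25 of the other HOM pools on the log2 scale, with a median absolute difference of 0.14. Genes read lower in this pool included Agrp (a log2 ratio of -0.55), Pomc (-0.55), Calcr-1a (-0.54), Calcr-1b (-0.49) and Calcr (-0.46). The pool held the youngest HOM mice, aged 100 and 128 days, against 176 and 179 days in pool 4/8 and 171 and 246 days in pool 7/10. NON pool 4/13 had the same labelled ages as HOM pool 6/9. NON pool 5/10 (185 and 175 days) was closest to HOM pool 4/8, and NON pool 6/9 (171 and 236 days) to HOM pool 7/10. NON pools 2/15 (243 and 217 days) and 11/14 (156 and 90 days) were matched to no HOM pool.

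Socs3, Stat3 and Npy are the genes the comparison turns on, and the 250 bases before their start sites are shown, since the first pair belong to one feedback loop. The sequences are from RefSeq (GRCm38.p6), written 5′ to 3′ on the strand of the gene. They were searched for the motif TTCNNNGAA, the palindrome to which Stat dimers bind. It reads the same on both strands. Capitals mark the match. Among 32851 promoter windows of the same length, 7.02% hold the motif.
Socs3 (chr11:117969367-117969616, minus strand): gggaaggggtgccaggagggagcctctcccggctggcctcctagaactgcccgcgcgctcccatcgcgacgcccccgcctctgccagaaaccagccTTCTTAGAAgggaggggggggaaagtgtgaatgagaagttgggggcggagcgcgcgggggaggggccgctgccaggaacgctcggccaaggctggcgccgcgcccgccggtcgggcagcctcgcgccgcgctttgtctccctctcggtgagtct
Stat3 (chr11:100939541-100939790, minus strand): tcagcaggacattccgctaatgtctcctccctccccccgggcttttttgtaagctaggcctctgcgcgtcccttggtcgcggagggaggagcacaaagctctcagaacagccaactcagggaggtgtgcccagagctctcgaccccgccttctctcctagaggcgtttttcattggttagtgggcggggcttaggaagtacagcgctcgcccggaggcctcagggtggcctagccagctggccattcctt
Npy (chr6:49822460-49822709, plus strand): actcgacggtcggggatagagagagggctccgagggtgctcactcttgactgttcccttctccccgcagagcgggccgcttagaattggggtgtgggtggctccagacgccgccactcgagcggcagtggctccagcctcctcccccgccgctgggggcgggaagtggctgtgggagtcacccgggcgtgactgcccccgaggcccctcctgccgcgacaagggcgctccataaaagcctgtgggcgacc
The Socs3 window holds 1 match, TTCTTAGAA, which begins 154 bases before the start site. The Stat3 and Npy windows hold 0 matches. Binding of Stat3 was not measured here.

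Socs3, the inhibitor induced by Stat3, had 66.4 normalised counts in HOM pool 4/8, 389.7 in HOM pool 6/9 and 77.0 in HOM pool 7/10. The NON pools had 65.0 in 2/15, 66.6 in 4/13, 62.7 in 5/10, 50.6 in 6/9 and 57.3 in 11/14. Pool 6/9 of HOM was far above all others, HOM pool 7/10 was just above the NON pools, and HOM pool 4/8 lay within them. The means were 177.7 ± 183.7 (SD, n = 3) in HOM and 60.4 ± 6.54 (SD, n = 5) in NON. The log2 fold-change was 1.55 (standard error 0.38, 95% interval 0.78 to 2.32, adjusted p = 0.0114). Without HOM pool 6/9 it was 0.25 (95% interval -0.41 to 0.91, adjusted p = 0.768). An exact two-sided permutation test of the 8 pools gave p = 0.0714, where the smallest possible is 0.0357. With only these 8 pools in the edgeR fit, the adjusted p was 0.236.

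Stat3, which carries the leptin signal to the nucleus, had 5204 normalised counts in HOM pool 4/8, 7448 in HOM pool 6/9 and 5051 in HOM pool 7/10. In NON pools it was 4336 in 2/15, 4521 in 4/13, 5168 in 5/10, 4371 in 6/9 and 4685 in 11/14. Again HOM pool 6/9 was the highest, and NON pool 5/10 lay between the other HOM pools. The log2 fold-change was 0.35 (standard error 0.092, adjusted p = 0.0114), or 27.8% higher. It was 0.15 without HOM pool 6/9 (95% interval -0.019 to 0.32, adjusted p = 0.439). The exact two-sided permutation p was 0.0714, and the 8 pools fitted alone gave an adjusted p of 0.236.

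The rest of the leptin arm did not pass the test. Jak2 had a log2 fold-change of 0.058, the receptor probe Lepr -0.0059 and the long isoform Lepr-b -0.16, with adjusted p from 0.438 to 0.975. The inhibitors Ptp1b, a phosphatase of Jak2, and Pias3, an inhibitor of Stat3, were at -0.021 and -0.011 (adjusted p = 0.975 for both). Of the 7 genes of this list, 2 rose and 5 did not pass, where 6.98% of all 43 genes passed. Both calls were lost without HOM pool 6/9. The list had a median log2 fold-change of -0.0059 against -0.046 over all 43. Lepr, Ptp1b and Pias3 changed sign with the scale, as did Lepr-b.

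Npy promotes feeding in the hypothalamus but was not restricted to this block. Its median over the 8 pools was 22372 normalised counts in the midbrain, against 64422 and 68529 in the left and right cortices. Which part of the midbrain block gave the Npy counts was not tested. Npy had 30034 normalised counts in HOM pool 4/8, 41873 in HOM pool 6/9 and 23793 in HOM pool 7/10. The NON pools had 15932 in 2/15, 21954 in 4/13, 22791 in 5/10, 12810 in 6/9 and 17706 in 11/14. Every HOM pool was above every NON pool, although HOM pool 7/10 and NON pool 5/10 were close. With the reference genes as the scale, Npy was the 1 gene of 43 (2.33%) with all HOM pools above all NON pools. There were 3 such genes with TMM and 5 with the positive control probes. The means were 31900 ± 9183 (SD, n = 3) and 18239 ± 4171 (SD, n = 5). The log2 fold-change was 0.81 (standard error 0.24, 95% interval 0.32 to 1.29, adjusted p = 0.0259), and the exact two-sided permutation p was 0.0357, the smallest that 3 against 5 pools allow. Akt1 and Pik3r1, which were lower in HOM pools, had the same permutation p. Without HOM pool 6/9 the log2 fold-change of Npy was 0.56 (95% interval 0.027 to 1.10, adjusted p = 0.374). The log2 fold-change was 0.85, 0.76, 0.70 and 0.80 without HOM pool 4/8, NON pool 2/15, NON pool 6/9 and NON pool 11/14 in turn, close to that of all pools, with an adjusted p just above 0.05 (0.0528, 0.0745, 0.0725 and 0.0552). The adjusted p was also above 0.05 with the 8 pools fitted alone (0.162).

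**Figure D2:**
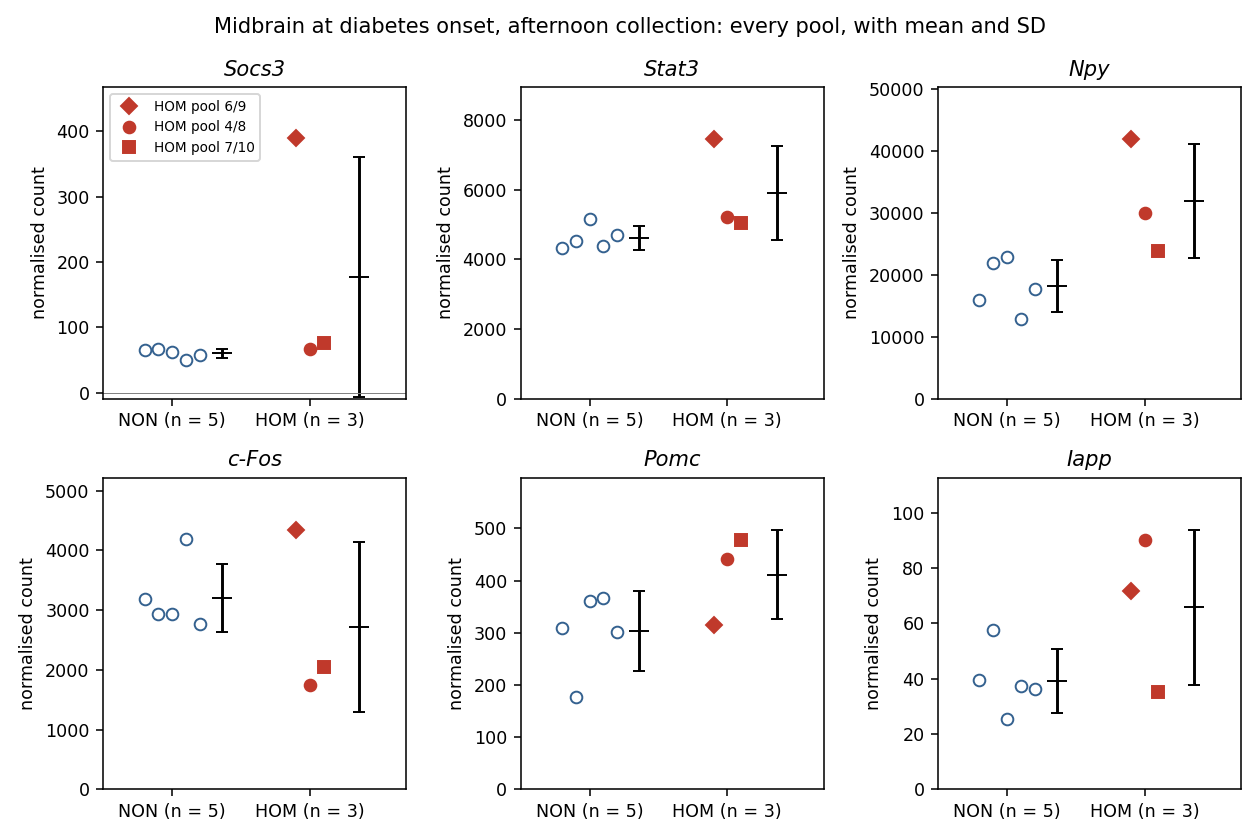
Normalised counts of 6 genes in each midbrain pool at T2 in PM, with NON pools as open circles, HOM pools as filled symbols, and the mean and SD of each group beside them. HOM pool 6/9 reads 389.7 for Socs3 against 50.6 to 77.0 in the other 7 pools, while for Npy all 3 HOM pools lie above the NON pools.

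Between pools of closest age, Npy was 1.91 times higher in HOM pool 6/9 than in NON pool 4/13, 1.32 times higher in HOM 4/8 than in NON 5/10 and 1.86 times higher in HOM 7/10 than in NON 6/9. For Socs3 the same ratios were 5.85, 1.06 and 1.52, and for Stat3 they were 1.65, 1.01 and 1.16. With only the 3 NON pools of closest age, the log2 fold-changes were 0.73 for Npy (adjusted p = 0.143), 1.56 for Socs3 (0.0791) and 0.33 for Stat3 (0.0847), and 0 genes passed, with 6 at an unadjusted p under 0.05.

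**Figure D3:**
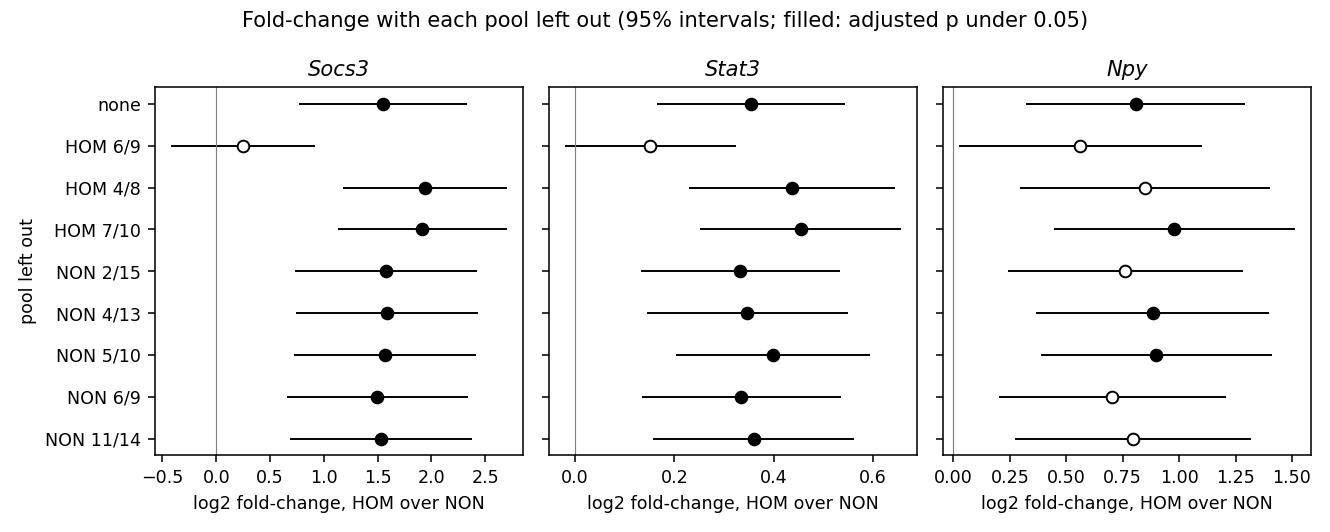
Log2 fold-change of HOM over NON (points, with 95% intervals as lines) for Socs3, Stat3 and Npy with no pool or 1 pool left out; filled points have an adjusted p under 0.05. Without HOM pool 6/9, Socs3 is at 0.25, Stat3 at 0.15 and Npy at 0.56, and the points are open.

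Among the other appetite genes, none passed the test, so that 1 of the 7 on this list rose and 6 did not pass (median log2 fold-change -0.066), against 6.98% passing over all 43 genes. That 1 gene, Npy, did not pass without HOM pool 6/9 or in 4 of the other 7 fits with a pool left out. Pomc, the precursor of the satiety peptide alpha-MSH, had 441.8 normalised counts in HOM pool 4/8, 314.4 in 6/9 and 478.1 in 7/10. Its NON pools had 308.7 in 2/15, 176.9 in 4/13, 361.7 in 5/10, 367.3 in 6/9 and 300.8 in 11/14. HOM pools 4/8 and 7/10 were above every NON pool and HOM pool 6/9 was among them. The log2 fold-change of Pomc was 0.44 (95% interval -0.13 to 1.01, adjusted p = 0.438), and 0.60 without HOM pool 6/9 (adjusted p = 0.439). Cart, a satiety peptide, had 3857, 3692 and 4976 normalised counts in HOM pools 4/8, 6/9 and 7/10. In NON pools 2/15, 4/13, 5/10, 6/9 and 11/14 it had 4374, 4685, 4539, 4764 and 3498. The groups overlapped, with a log2 fold-change of -0.066 (adjusted p = 0.975), and 0.015 without HOM pool 6/9. Agrp, which is made by the Npy neurons of the arcuate nucleus, had 88.3 to 139.2 normalised counts in HOM and 82.5 to 130.7 in NON pools, a log2 fold-change of 0.020 (95% interval -0.57 to 0.61).

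Hcrt had 816.2, 698.9 and 709.8 normalised counts in HOM pools 4/8, 6/9 and 7/10. The NON pools 2/15, 4/13, 5/10, 6/9 and 11/14 had 912.8, 838.8, 883.7, 975.4 and 781.6. The groups overlapped only through HOM pool 4/8 and NON pool 11/14, and the log2 fold-change was -0.24 (95% interval -0.59 to 0.10, adjusted p = 0.466), or -0.20 without HOM pool 6/9. Mch was at -0.12 (adjusted p = 0.709). Mc4r, the receptor through which alpha-MSH restrains feeding, was at -0.20, with an unadjusted p of 0.0197 and an adjusted p of 0.211.

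Amylin, its receptor and c-Fos did not pass the test in this block. None of the 7 probes for amylin and its receptor passed, where 6.98% of all 43 genes did, and their median log2 fold-change was -0.057 against -0.046 over all genes. The mouse amylin gene Iapp had 90.4, 71.9 and 35.2 normalised counts in HOM pools 4/8, 6/9 and 7/10. The NON pools 2/15, 4/13, 5/10, 6/9 and 11/14 had 39.6, 57.6, 25.3, 37.4 and 36.4. HOM pools 4/8 and 6/9 were above all NON pools and HOM pool 7/10 was within them. The log2 fold-change was 0.74 (95% interval -0.18 to 1.67, adjusted p = 0.438), and 0.67 without HOM pool 6/9. Raw counts of Iapp were 29 to 98, above background in each of the 8 pools, at 3.97 and 4.14 times background in HOM pools 4/8 and 6/9 and 1.47 to 2.49 times in the other pools. Whether this probe also counts the human transgene mRNA was not tested.

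Calcr had 996.1, 699.7 and 930.0 normalised counts in HOM pools 4/8, 6/9 and 7/10, and 830.5, 798.0, 937.7, 1011 and 977.0 in NON pools 2/15, 4/13, 5/10, 6/9 and 11/14. The lowest of the 8 was HOM pool 6/9, and the other HOM pools lay within the NON pools. Its log2 fold-change was -0.057 (95% interval -0.31 to 0.20, adjusted p = 0.975), and 0.080 without HOM pool 6/9. The isoform probe Calcr-1b had 166.0, 123.8 and 181.7 in HOM pools 4/8, 6/9 and 7/10, and 120.8, 145.1, 169.9, 199.0 and 140.9 in the NON pools in the same order as for Calcr. The groups overlapped, and the log2 fold-change was 0.020 (adjusted p = 0.975), or 0.17 without HOM pool 6/9. Calcr-1a was at -0.11, and the Calcr and Calcr-1a probes are listed under the same transcript, so they are not independent. Ramp1, Ramp2 and Ramp3, which turn the calcitonin receptor into an amylin receptor, were at -0.068, -0.032 and -0.10 (adjusted p = 0.674 or above).

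c-Fos, an immediate early gene that marks recent neuronal activity, had 1751, 4346 and 2044 normalised counts in HOM pools 4/8, 6/9 and 7/10. The NON pools 2/15, 4/13, 5/10, 6/9 and 11/14 had 3188, 2935, 2939, 4191 and 2761. HOM pools 4/8 and 7/10 were below every NON pool and HOM pool 6/9 was above every one. The log2 fold-change was -0.24 (95% interval -1.21 to 0.73, adjusted p = 0.975), and -0.75 without HOM pool 6/9. The desensitisation genes Arrb1, Arrb2 and Adrbk1, which uncouple receptors from their G proteins, were at 0.067, -0.016 and -0.0070, and none passed.

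None of the 15 probes listed for insulin and its Akt pathway passed the test, where 6.98% of all 43 genes did. Their log2 fold-changes were positive for 3 and negative for 12, with a median of -0.067 against -0.046 over all genes. The signs followed the scale: with the positive control probes 13 were positive and 2 negative, with a median of 0.11 against 0.13 over all genes. Ins1, an insulin gene, had 34.1, 32.9 and 12.3 normalised counts in HOM pools 4/8, 6/9 and 7/10, and 44.7, 41.7, 26.1, 38.5 and 16.4 in NON pools 2/15, 4/13, 5/10, 6/9 and 11/14. The lowest value of each group was at or under background, and the log2 fold-change was -0.34 (95% interval -1.19 to 0.51, adjusted p = 0.728), and -0.54 without HOM pool 6/9. Irs1, an adaptor of the insulin receptor, had 323.7, 336.9 and 290.6 in HOM pools 4/8, 6/9 and 7/10, and 325.9, 385.6, 382.6, 384.9 and 389.0 in the NON pools in the same order. It was lower in every HOM pool than in 4 of the 5 NON pools, with NON pool 2/15 among the HOM values. Its log2 fold-change was -0.24 (95% interval -0.46 to -0.012, adjusted p = 0.282), and -0.28 without HOM pool 6/9 (adjusted p = 0.374). Foxo1, a transcription factor that Akt inhibits, was at -0.15 (adjusted p = 0.259).

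The kinase Akt1 and Pik3r1, a regulatory subunit of PI3-kinase, were the 2 of 43 genes (4.65%) with all HOM pools below all NON pools. Akt1 had 9682 to 10680 normalised counts in HOM and 10797 to 12336 in NON pools, a log2 fold-change of -0.16 (adjusted p = 0.438). Pik3r1 had 6097 to 6316 in HOM and 6403 to 6915 in NON pools, a log2 fold-change of -0.10 (adjusted p = 0.392). With the positive control probes as the scale they were at 0.016 and 0.076, 0 genes had all HOM pools below all NON pools, and 5 had them above. With TMM these counts were 1 and 3. The other genes of this list, Insr, Irs2, Pik3ca, Pdk1, Akt2, Gsk3a, Gsk3b, mTor, Pde3b and Ins2, lay between -0.10 and 0.037. The transcript listed for the Pdk1 probe belongs in RefSeq to pyruvate dehydrogenase kinase 1, not to the 3-phosphoinositide-dependent kinase of the insulin pathway. Without it the list held 14 genes, 3 positive and 11 negative, with a median of -0.059.

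The histamine genes and Hdac5 did not pass. Hdc had 252.7, 216.5 and 244.0 normalised counts in HOM pools 4/8, 6/9 and 7/10, and 225.4, 252.4, 308.5, 344.2 and 247.2 in NON pools 2/15, 4/13, 5/10, 6/9 and 11/14. The groups overlapped, with HOM pool 6/9 lowest, at a log2 fold-change of -0.21 (95% interval -0.49 to 0.061, adjusted p = 0.438), and -0.15 without HOM pool 6/9. The histamine receptor Hrh1 was at -0.0029 and the histone deacetylase Hdac5 at -0.11.

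The same 8 pools of mice were followed into the other regions, to ask whether the difference lay in the midbrain. For the right cortex, the 3 HOM libraries are homozygous by title and genotype label but hemizygous by their source label, and the title and genotype were followed. In the left cortex, HOM pool 6/9 had 483.4 normalised counts of Socs3 and the other 7 pools 62.5 to 111.5. In the right cortex it had 370.5, against 62.7 to 95.7. In the hindbrain it had 43.6, against 27.0 to 40.9. The pool was thus high for Socs3 in the midbrain and both cortices, and in the hindbrain it was close to the next pool. Stat3 was also high in this pool in both cortices, with 9291 in HOM pool 6/9 against 4625 to 5717 in the left cortex, 8196 against 4951 to 5421 in the right cortex, and 4513 within 4213 to 4524 in the hindbrain.

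**Figure D4:**
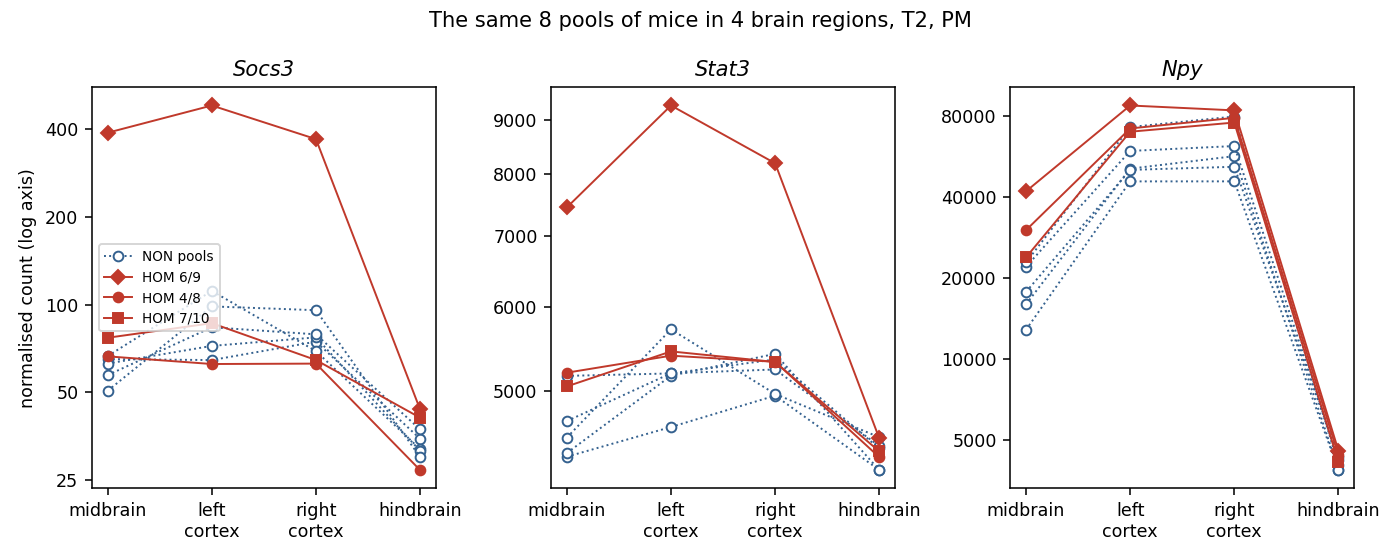
Normalised counts (log axes) of Socs3, Stat3 and Npy in the same 8 pools of mice across 4 regions, with HOM pools as solid red lines and NON pools as dotted blue lines. HOM pool 6/9 is high for Socs3 and Stat3 in the midbrain and both cortices and reads 43.6 for Socs3 in the hindbrain.

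The log2 fold-change of Socs3 was 1.26 in the left cortex (adjusted p = 0.0475), 1.06 in the right cortex (0.153) and 0.16 in the hindbrain (0.978). These became -0.20, -0.32 and 0.033 without HOM pool 6/9. By adjusted p, 4 genes differed in the left cortex (9.30%), namely Socs3 and Stat3, which were higher, and Adrbk1 and Hdc, which were lower. In the right cortex and the hindbrain 0 genes did, with 8 and 3 at an unadjusted p under 0.05. Without HOM pool 6/9, 1 gene passed in the left cortex (2.33%), Calcr (adjusted p = 0.0285). Calcr was at or under background in 4 of the 5 NON libraries there, so that no exact fold can be given, and the pool left out was the one HOM pool at the NON level. Npy in the left cortex was 71678, 87239 and 69704 normalised counts in HOM pools 4/8, 6/9 and 7/10 against 45567 to 72552 in NON pools, and in the hindbrain 4131 to 4550 against 3855 to 4301. In the right cortex it was 78496, 83667 and 75397 in HOM pools 4/8, 6/9 and 7/10 against 45584 to 79394 in NON pools. The groups overlapped in all 3 regions, in both cortices through NON pool 5/10 alone. The log2 fold-changes of Npy were 0.45 in the left cortex (adjusted p = 0.082), 0.43 in the right cortex (0.153) and 0.10 in the hindbrain (0.978), or 0.34, 0.38 and 0.071 without HOM pool 6/9.

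The midbrain effect was set against each region with the pool as a block. The difference in the Npy effect was 0.69 on the log2 scale between midbrain and hindbrain (95% interval 0.26 to 1.13, adjusted p = 0.0836), 0.33 against the left cortex (adjusted p = 0.233) and 0.35 against the right cortex (0.497). For Socs3 it was 1.00 against the hindbrain (95% interval -0.099 to 2.11, adjusted p = 0.379), 0.32 against the left and 0.51 against the right cortex. With HOM pool 6/9 left out, the Socs3 differences were 0.23 (-0.36 to 0.81, adjusted p = 0.687), 0.44 and 0.55 in the same order, and those of Npy were 0.51 (0.042 to 0.98, adjusted p = 0.332), 0.22 and 0.17. For Calcr the difference was -1.46 against the left cortex (adjusted p = 0.0747). Left cortex Calcr was 80.7 and 87.7 normalised counts in HOM pools 4/8 and 7/10 and 17.7 in HOM pool 6/9, against 17.1 to 28.0 in NON pools, 4 of which were at or under background. No difference between regions passed the test, with 5, 6 and 4 of the 43 genes at an unadjusted p under 0.05 against hindbrain, left and right cortex. Without HOM pool 6/9, the fitted Calcr difference to the left cortex was -1.79 (adjusted p = 0.00048), with the same limit on its size.

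Hemizygous mice of the same stage and time of day were set against the HOM pools, to ask whether the difference followed the dose of the transgene. HEM pools 5/10, 7/12 and 8/14 had 33681, 22523 and 23537 normalised counts of Npy, 70.7, 76.4 and 70.4 of Socs3, and 5163, 5274 and 5467 of Stat3. The HEM pools overlapped the HOM pools in all 3 genes, and HOM pool 6/9 was above every HEM pool. Against the same 5 NON pools, which the comparisons share, HEM had log2 fold-changes of 0.54 for Npy (adjusted p = 0.314), 0.26 for Socs3 (0.784) and 0.20 for Stat3 (0.328). HOM minus HEM was 0.26 for Npy (95% interval -0.29 to 0.81, adjusted p = 0.583), 1.29 for Socs3 (0.41 to 2.17, adjusted p = 0.164) and 0.15 for Stat3 (-0.057 to 0.37, adjusted p = 0.514). Without HOM pool 6/9 the values were 0.018 for Npy, -0.015 for Socs3 and -0.048 for Stat3. The Socs3 value passed the test at 1.68 without HOM pool 4/8 (adjusted p = 0.0151) and at 1.66 without HOM pool 7/10 (0.0245). With all pools 0 of 43 genes passed, and 6 had an unadjusted p under 0.05.

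In AM at T2, HOM pools 1/3 and 5, the latter of a single mouse, had 52.8 and 66.9 normalised counts of Socs3. Their Npy was 18194 and 11412 in the same order. NON pools 1/3 and 7/8 had 64.6 and 48.4 of Socs3 and 14951 and 13877 of Npy. The groups overlapped in both genes. The AM log2 fold-changes were 0.065 for Socs3 and 0.038 for Npy, with adjusted p of 0.991. The PM effect exceeded the AM effect by 1.49 for Socs3 (95% interval 0.065 to 2.91, adjusted p = 0.963) and by 0.77 for Npy (-0.064 to 1.60, adjusted p = 0.963). These differences were 0.18 for Socs3 (-0.88 to 1.25) and 0.52 for Npy (-0.33 to 1.37) with HOM pool 6/9 left out. No gene passed this test, and 1 had an unadjusted p under 0.05.

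Before diabetes, at T1 in PM, the HOM midbrain again had 1 pool apart. HOM pool 1/5 (101 and 99 days) had 299.5 normalised counts of Socs3, 7100 of Stat3 and 42269 of Npy, and HOM pool 8/9 had 50.6, 4626 and 19033. The 3 NON pools, 1 of them of a single mouse, had 46.6 to 56.9, 4373 to 4622 and 15269 to 21231. The T1 log2 fold-changes were 1.71 for Socs3 (adjusted p = 0.0447), 0.38 for Stat3 (0.0447) and 0.79 for Npy (0.131), and 3 genes passed (6.98%), the third being Arrb2. The T2 effect differed from the T1 effect by -0.16 for Socs3 (95% interval -1.44 to 1.12), -0.021 for Stat3 and 0.019 for Npy (-0.77 to 0.81), and no gene passed, with 2 at an unadjusted p under 0.05. Each Socs3 effect held 1 high HOM pool. Leaving out that of T2 (HOM pool 6/9) moved the Socs3 difference to -1.46 (-2.44 to -0.49, adjusted p = 0.155), the Stat3 difference to -0.22 and the Npy difference to -0.23. The high pool of T1 (HOM pool 1/5) stayed in that fit, so a shift of this direction was built in. No T1 effect without HOM pool 1/5 is given here. The other T1 HOM pool, 8/9, lay within the NON values for Socs3 and Npy. Over the 49 midbrain pools, T2 HOM pool 6/9 and T1 HOM pool 1/5 ranked 1 and 2 for Socs3 and for Stat3, and 2 and 1 for Npy. The next Socs3 value was 83.2, in the single HOM pool of T3 in PM. The T2 PM HOM pools ranked 2, 6 and 7 for Npy.

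**Figure D5:**
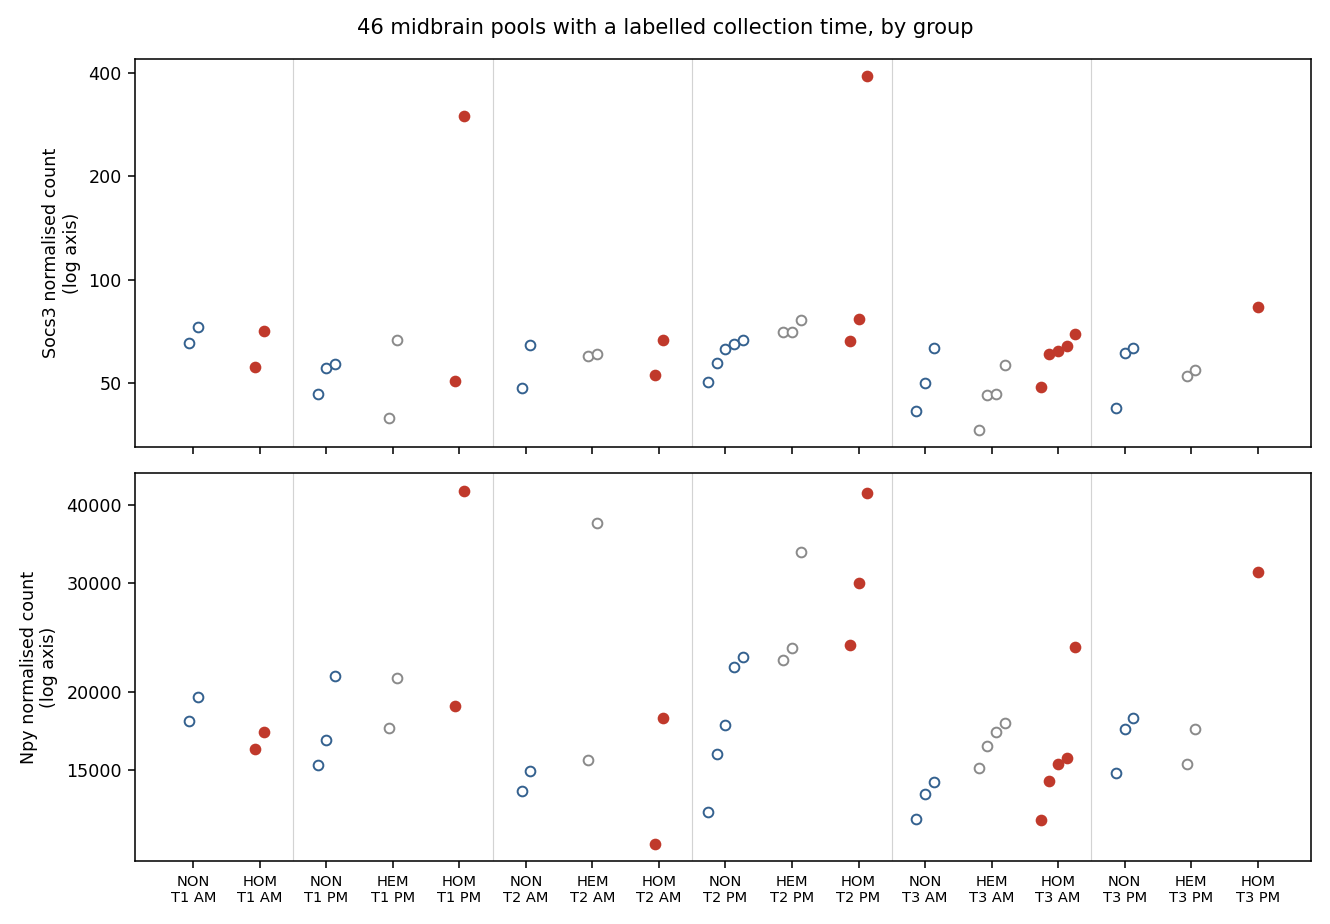
Normalised counts (log axes) of Socs3 and Npy in the 46 midbrain pools with a labelled collection time, by time point, collection time and genotype, 1 point a pool. For Socs3, 1 HOM pool at T1 PM (299.5) and 1 at T2 PM (389.7) stand above all others.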

How the data were processed

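RNA of brain regions was counted on the nCounter platform. The authors deposited raw counts for 43 target genes, 3 reference genes, 6 positive and 8 negative control probes, with no normalization applied. Probe transcripts were matched to RefSeq gene names (43 of 43). The files list Cart (Cartpt), Mch (Pmch), Ptp1b (Ptpn1), c-Fos (Fos) and Adrbk1 (Grk2) by older names.

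The counts of 46 midbrain pools were fitted in edgeR 4.0.16 (R 4.3.3) with a mean for each group of time point, genotype and collection time, the reference genes' geometric mean as library size and a prior count of 0.125. HOM and NON were compared by the quasi-likelihood test, and p-values were adjusted over 43 genes by the Benjamini-Hochberg method. A gene was called at an adjusted p under 0.05, with log2 limits of 1 and 0.58. Differences between regions were tested on 16 libraries of the same mice with the pool as a block. The p-values measure the spread between pools of mice. The fits were tested on simulated data that held no outlying pool. That test does not bear on a call that rests on an outlying pool. Exact permutation tests used log2 of normalised counts plus 0.5. Of 13 pairs of pools within a group, 0 were identical, and chi-square divided by its degrees of freedom was at least 16.9.

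Values for each pool are given for genes with an adjusted p under 0.05, genes the study discusses and the 3 other genes above background with the largest change. Other genes named by unadjusted p or by ranges that do not overlap were chosen after their values were seen. The pools, gene lists and tests were chosen with earlier results of these data known. DESeq2 1.42.0, other scales, other pool sets and single pools left out were the alternatives. Robust estimation of the spread, the list counts under other scales and the insulin list without Pdk1 were added after seeing the data. The 12 HEM pools of T1 without a labelled collection time were left out of the fits. The midbrain ones among them entered the ranks over all 49 midbrain pools. The study's tool, NanoStringDiff, was not available. For 1 reference gene no result is reported. Figures were drawn with matplotlib 3.10.9.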

Additional observations from a re-analysis of the deposited data

Results flagged for a closer look

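In the 5 NON pools, 4 of the 43 genes had 1 pool far from the rest, with a gap to its neighbour above 0.71 of the range. Chance flags about 1 in 20 groups. NON pool 2/15 had 325.9 normalised counts of Irs1, against 382.6 to 389.0 in the other NON pools. NON pool 6/9 had 31333 of Mch, against 23096 to 24648. NON pool 4/13 had 1606 of Pias3, against 1463 to 1483, and 2941 of Ramp3, against 3404 to 3592. The 3 HOM pools were too few for this check.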

How the results depend on the processing

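Socs3, Stat3 and Npy kept their direction in all 14 alternatives and with each of the 8 pools left out, and each had an adjusted p under 0.05 in 10 of the 14, the void permutation test among the other 4, and DESeq2 among the 10 (adjusted p = 0.00108, 0.00108 and 0.0065). The adjusted p over the alternatives ran from 0.00108 to 0.439 for Socs3 and Stat3 and from 0.0065 to 0.439 for Npy. In each of these genes the upper end, 0.439, was that of the void permutation test. The counts of 1, 2 and 3 genes (past 2-fold, past 1.5-fold, by adjusted p) fell to 0, 0 and 0 with only the 8 pools in edgeR, with only the 3 NON pools of closest age, and with age-matched pools as a replicate block (6 genes each at an unadjusted p under 0.05). They were also 0, 0 and 0 by the exact permutation test (3 genes at an unadjusted p under 0.05), where the smallest p of 0.0357 left almost no room to pass after adjustment over 43 genes, so this bears on no call. In the paired fit Npy was at 0.74 (adjusted p = 0.0654) and Socs3 at 1.15 (0.27). The deviations of age-matched pools correlated at 0.40, -0.22 and 0.24 over the 43 genes, so the ages did not pair all pools. With 1 pool left out, the counts ran from 0 to 1, 0 to 2 and 0 to 3, and were 0 only without HOM pool 6/9, where 5 genes had an unadjusted p under 0.05. The cause of these changes was not tested, except that fewer pools entered the fits.

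For the differences, HOM minus HEM ran from 0 to 1 genes with a pool left out. Midbrain minus hindbrain gave 3 genes by edgeR's likelihood-ratio test. Midbrain minus left cortex gave 2 with the positive control probes, 2 by the likelihood-ratio test and 0 to 2 with a pool left out. Midbrain minus right cortex gave 0 to 2 with a pool left out, the 2 being Calcr and Irs2 without NON pool 5/10. In the right cortex that pool had 98.6 normalised counts of Calcr. The other NON pools had 18.3 to 32.1, and the HOM pools 59.0 to 132.9. For Calcr the pool left out was thus the 1 NON pool within the HOM values. Over all 43 genes, 25 changed sign with the scale. Among the genes given pool by pool that did not pass, Cart (0.12) and Calcr (0.12) turned sign with the positive control probes. Calcr-1b turned sign with the NON pools of closest age (-0.12) and with the replicate block (-0.13). With a pool left out, Calcr-1b ran from -0.098 to 0.17, Cart from -0.21 to 0.015, Calcr from -0.16 to 0.080 and Ins1 from -0.56 to 0.015. Raw counts at or near background in some pools limit what can be detected for Ins1 and Ins2.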

Other observations

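c-Fos separated the HOM pools in every region at T2 in PM. HOM pools 4/8 and 7/10 had 1886 and 1809 normalised counts in the hindbrain, against 2563 to 4997 in NON pools, and 3176 and 2802 in the left cortex, against 3961 to 7920. In the right cortex they had 2394 and 2843, against 3574 to 7538. HOM pool 6/9 had 3211, 5396 and 5252 in these regions and lay within the NON pools. The log2 fold-changes were -0.69, -0.45 and -0.54, with adjusted p of 0.978, 0.541 and 0.661 by edgeR's quasi-likelihood test. With HOM pool 6/9 left out they were -1.0, -0.79 and -0.96 (adjusted p = 0.999, 0.482 and 0.434).

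Pomc in the hindbrain varied more than in the midbrain, from 72.5 to 1096 normalised counts over the same 8 pools, with 235.5, 596.1 and 1096 in HOM pools 4/8, 6/9 and 7/10 and 72.5 to 452.2 in NON pools. The groups overlapped through HOM pool 4/8, and the log2 fold-change was 1.57 (95% interval 0.15 to 3.00, adjusted p = 0.457 by edgeR), or 1.62 without HOM pool 6/9 (adjusted p = 0.999).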
